A study of Mus musculus with 3 samples.

Results

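The amino acid transporter genes analysed here are the members of 6 solute carrier families, Slc1, Slc3, Slc6, Slc7, Slc36 and Slc38. They were taken by symbol from a table of 23421 genes, which held 56 of them. The table gives the transcriptome of mouse embryos at E6.5, when the primitive streak forms, as 1 library each of wild type, tw18/+ and tw18/tw18. The study describes matings between tw18/+ mice for the embryos it stained by in situ hybridization, and the labels give the strain as 129/SvEv. As a possible reason for the variable mutant phenotype, the study names genetic backgrounds that were not inbred and differed between embryos. tw18 is a *t* haplotype of Chr 17 with a deletion that removes *Ppp2r1a*, which encodes a scaffolding subunit of the phosphatase PP2A, together with many other genes, so tw18/+ embryos lack 1 copy of all of them and tw18/tw18 embryos lack both. The labels name the tissue as epiblast, whereas the study's methods describe the embryo proper, that is epiblast with its surrounding visceral endoderm. How many embryos and which sexes went into a library is not given in the sources used here. Among embryos stained at E6.5, the study describes the tw18/tw18 embryos as slightly younger. The part of stage in the values given here was not tested.

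With 1 library per genotype no difference has a replicate check, and no p-value is given. Values are FPKM, that is fragment numbers relative to the length of the transcript and to the mapped fragments of the library, so levels can be compared between genes of different length. Depth, estimated from the spacing of the lowest FPKM values, was about 13800000 fragments in wild type, 19300000 in tw18/+ and 19200000 in tw18/tw18. The 95% exact binomial intervals given for log2 ratios come from fragment numbers estimated in this way, and they cover counting error only. *Ppp2r1a* measured 146 FPKM in wild type, 81.7 in tw18/+ and 12.8 in tw18/tw18, the order of the labelled genotypes. The deletion leaves tw18/tw18 embryos no copy of this gene, so the labelled genotype does not account for the 12.8 FPKM. The source of this value was not tested. Some abundant genes are listed at 0 in 1 library, such as *Actr3* in wild type, so a 0 can be a failed estimate and is given here as listed at 0. The tw18/tw18 library had less of the epiblast markers and more of the markers of stroma and extra-embryonic tissue than both others, with values given after the transporter genes. In such bulk samples fewer cells of a type and less RNA per cell cannot be told apart.

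Amino acid transporters bring the building blocks of protein, nucleotide and glutathione synthesis across the plasma membrane and the lysosomal membrane. Some import amino acids with sodium, chloride or protons, and others exchange one amino acid for another, so that the amino acids loaded by the first kind pay for the entry of those carried by the second. The leucine and arginine they deliver also activate the growth kinase complex mTORC1, and a shortage of amino acids induces many transporter genes through the transcription factor ATF4. The Slc6 family further holds the transporters of neurotransmitters, creatine and taurine.

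Of the 56 genes, 31 reached at least 1 FPKM in at least 1 library, 17 stayed under 1 in every library with at least 1 value above 0, and 8 were listed at 0 throughout. The level of 1 FPKM was reached by 28 transporter genes in wild type (50%), 28 in tw18/+ (50%) and 29 in tw18/tw18 (51.8%), against 50.6%, 50.7% and 53% of all genes. The summed FPKM of the transporter genes was 567 in wild type, 556 in tw18/+ and 580 in tw18/tw18. The 7 highest genes of each library held 69.4%, 69.6% and 67% of these sums. Which genes they were differed between libraries. In wild type and tw18/+ the order was *Slc7a3*, *Slc38a2*, *Slc7a7*, *Slc7a5*, *Slc3a2*, *Slc38a1* and *Slc6a6*. In tw18/tw18 *Slc7a7* was highest, followed by *Slc38a2*, *Slc7a3*, *Slc3a2*, *Slc7a8*, *Slc6a6* and *Slc6a8*, while *Slc7a5* and *Slc38a1* stood at ranks 8 and 10.

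**Figure D1:**
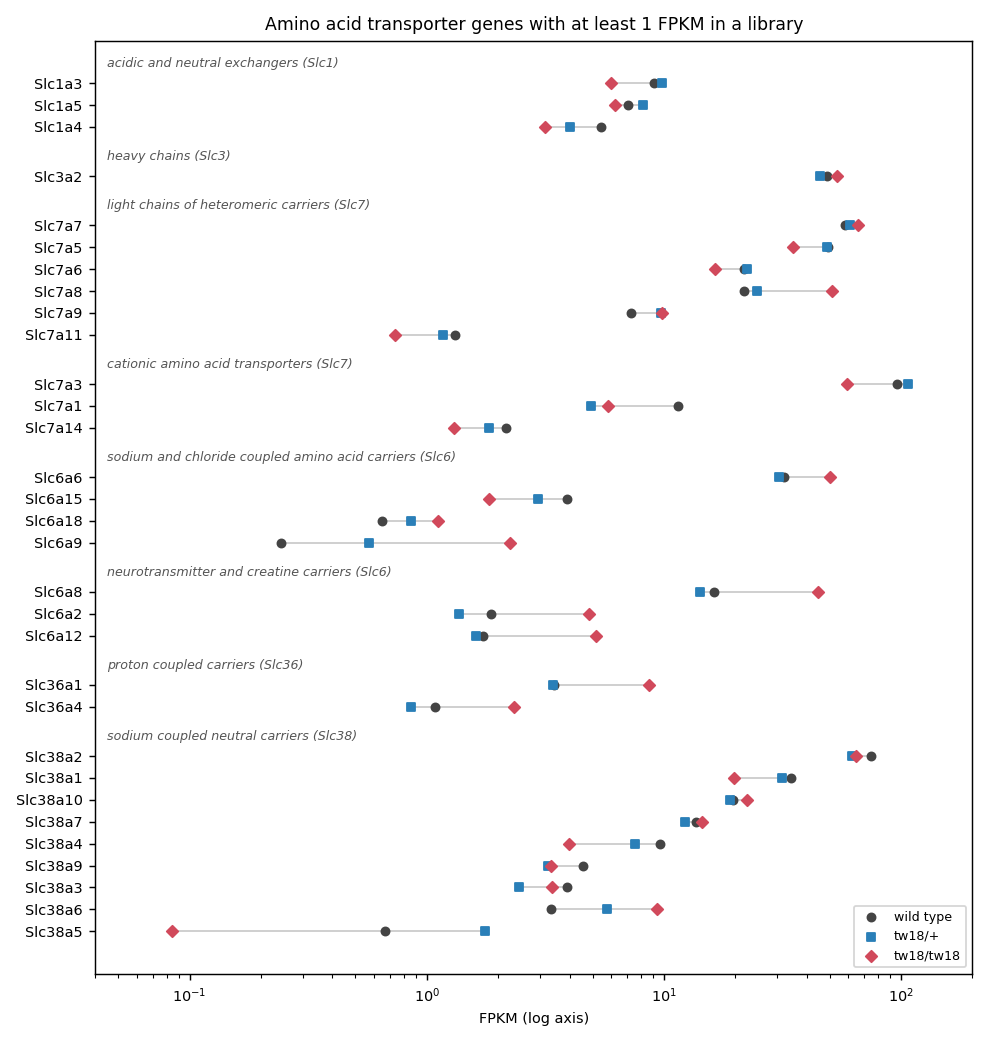
FPKM on a log axis of the 31 transporter genes with at least 1 FPKM in a library, ordered by role, with 1 point for each of the 3 libraries and a grey line spanning them. The tw18/tw18 points lie to the right of both others for the proton coupled carriers and the neurotransmitter and creatine carriers, and to the left for *Slc7a3*, *Slc38a1* and *Slc38a4*.

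A gene is called higher or lower here when its FPKM differed at least 2-fold (a log2 ratio of at least 1, with no pseudocount) and the higher value was at least 1. Between tw18/tw18 and wild type, 30 transporter genes could be called. The 8 genes higher in tw18/tw18 were *Slc6a2*, *Slc6a8*, *Slc6a9*, *Slc6a12*, *Slc7a8*, *Slc36a1*, *Slc36a4* and *Slc38a6* (26.7%), against 15.1% of the 12917 genes that could be called in the whole table. *Slc6a15* and *Slc38a4* were lower (6.67%), against 6.94% of all genes. Of these 30, *Slc6a9* and *Slc6a18* could be called only through their value in tw18/tw18 and *Slc7a11* only through wild type. Between tw18/+ and wild type *Slc38a5* alone was higher and *Slc7a1* alone was lower (3.45% each of 29), against 4.70% and 5.02% of all genes. In this pair *Slc38a5* could be called only through its value in tw18/+ and *Slc36a4* only through wild type. Against tw18/+, 7 genes were higher in tw18/tw18 (22.6% of 31, against 14.9% of all genes) and *Slc38a5* was lower (3.23%, against 5.65%). The 7 were those higher than in wild type without *Slc38a6*. Of these 31, *Slc6a9*, *Slc6a18* and *Slc36a4* could be called only through tw18/tw18, and *Slc7a11* and *Slc38a5* only through tw18/+. The comparisons share libraries, with wild type in the first 2, tw18/+ in the last 2, and tw18/tw18 in the first and the last. Closest to the limit against wild type were *Slc36a4* at a log2 ratio of 1.11 and *Slc6a15* at -1.09 inside it, and *Slc6a18* at 0.78 and *Slc7a1* at -0.98 outside it.

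Over the 26 transporter genes with at least 1 FPKM in all 3 libraries, the median log2 ratio was -0.20 in tw18/tw18 and -0.093 in tw18/+ against wild type, beside -0.049 and 0.004 over the 11069 genes of the table with such values. Scaling each library to an equal FPKM sum would add 0.21 to every log2 ratio of tw18/tw18 against wild type. On that scale 19.3% of all genes were higher and 4.89% lower in tw18/tw18, while the transporter genes numbered 8 higher and 1 lower.

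**Figure D2:**
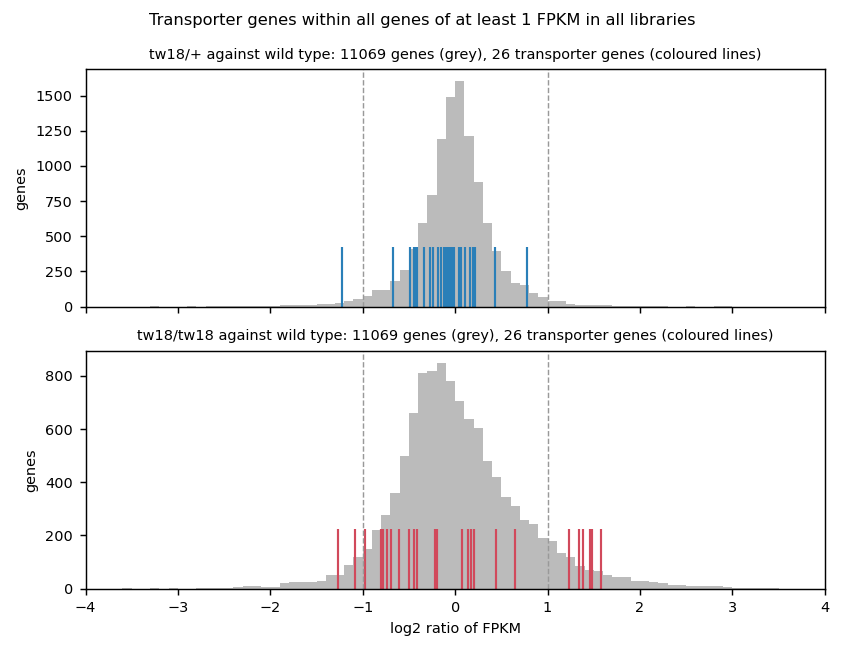
Distribution of the log2 ratio of FPKM against wild type over 11069 genes with at least 1 FPKM in all libraries (grey bars, number of genes) with the 26 transporter genes as coloured lines, for tw18/+ above and tw18/tw18 below, and dashed lines at a 2-fold difference. In tw18/tw18 the lines fall into a part between -1.27 and 0.64 and a separate part from 1.23 to 1.58, whereas in tw18/+ only *Slc7a1* lies past a dashed line.

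The heteromeric transporters pair a heavy chain, which carries the complex to the membrane, with a light chain that moves the amino acid. *Slc3a2* encodes 4F2hc, the heavy chain of most of them, and lies on Chr 19 from 8706882 to 8723369 (GRCm38). Its FPKM was 48.7 in wild type, 45.5 in tw18/+ and 53.6 in tw18/tw18, so the 3 libraries lay close together. The light chains known to pair with it summed to an FPKM of 153, 158 and 169, which is 3.13, 3.47 and 3.15 times the level of *Slc3a2*. Within this nearly even total the composition differed between the libraries.

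*Slc7a5* encodes LAT1, the exchanger that brings in leucine and other large neutral amino acids. It measured 49.4 FPKM in wild type, 48.6 in tw18/+ and 35.0 in tw18/tw18, corresponding to a log2 ratio of -0.50 in tw18/tw18 (95% counting interval -0.58 to -0.41). *Slc7a8* encodes LAT2, a related exchanger of neutral amino acids that is typical of polarized epithelia, and lies on Chr 14 from 54722209 to 54781946. Its FPKM was 21.7, 24.8 and 51.1 in the same order, corresponding to a log2 ratio of 1.23 in tw18/tw18 (1.14 to 1.33). The tw18/tw18 library thus stood apart from both others in both genes, in opposite directions. Per length, *Slc7a8* had 0.44 of the level of *Slc7a5* in wild type and 0.51 in tw18/+, but 1.46 times that level in tw18/tw18.

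*Slc7a7* and *Slc7a6* encode the y+LAT exchangers, which release arginine and lysine from cells in return for neutral amino acids and sodium. *Slc7a7* measured 58.3 FPKM in wild type, 60.9 in tw18/+ and 65.8 in tw18/tw18 and was within 1.13-fold of wild type in both. Its exons share 7% of their bases with *Oxa1l* on the other strand, and whether fragments were assigned by strand is not given in the sources used here. *Slc7a6* measured 21.9 FPKM, 22.4 and 16.5, corresponding to a log2 ratio of -0.41 in tw18/tw18. *Slc7a11* encodes xCT, which imports cystine for glutathione synthesis in exchange for glutamate. Its level was low, with an FPKM of 1.32, 1.17 and 0.735 from about 168, 209 and 130 fragments, corresponding to a log2 ratio of -0.84 in tw18/tw18 (-1.19 to -0.50).

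*Slc7a9*, the light chain that carries cystine and dibasic amino acids in kidney and intestine, measured 7.24 FPKM in wild type, 9.77 in tw18/+ and 9.84 in tw18/tw18. Its known partner is rBAT, the heavy chain encoded by *Slc3a1*. *Slc3a1* was listed at 0 in wild type and tw18/+, where 3 fragments would have given an FPKM of 0.0957 and 0.0685, and it reached 0.339 in tw18/tw18 from about 15 fragments. *Slc3a1* is also the only transporter gene on Chr 17, from 85028376 to 85064236, which is outside the tw18 deletion as the study mapped it.

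ATF4 binds the C/EBP-ATF response element, for which the letters TGATGNAA were searched on both strands of promoter windows reaching from 250 bases before to 50 bases after each RefSeq start site (GRCm38.p6). Windows were at hand for 39 of the 56 transporter genes, and 3 of the 39 (7.69%) held the letters, against 4.51% of all 27025 genes and 8 of 25 listed amino acid response genes (32%). The matches are shown because they are in the genes of xCT, of the neutral exchanger ASCT1 and of y+LAT1. The capitals mark the letters or their reverse complement, and each sequence reads 5′ to 3′ on the minus strand, on which these genes lie. The *Slc7a11* sequence is chr3:50443614-50443733 and ends at the last base before the start site.
Slc7a11: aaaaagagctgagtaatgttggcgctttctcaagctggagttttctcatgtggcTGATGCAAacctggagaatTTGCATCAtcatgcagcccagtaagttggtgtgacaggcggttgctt
The *Slc1a4* sequence is chr11:20332699-20332728, and its match spans the start site.
Slc1a4: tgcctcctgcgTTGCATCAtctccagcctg
RefSeq gives *Slc7a7* several start sites. The upstream match lies in the window of 1 of them and the other match in the windows of 2. The sequences are chr14:54418067-54418096 and chr14:54417927-54417956, in this order.
Slc7a7 upstream: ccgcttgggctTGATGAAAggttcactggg
Slc7a7 at the outer start site: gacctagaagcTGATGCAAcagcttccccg
The *Slc7a11* window thus holds 2 matches in opposite orientation, at 66 and 47 bases before the start site. In tw18/tw18 *Slc7a11* and *Slc1a4* were lower than in wild type by less than 2-fold and *Slc7a7* was slightly higher. A match of letters is a description and shows no binding.

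The cationic amino acid transporters import arginine, lysine and ornithine without a partner protein. *Slc7a3*, which encodes CAT3 and lies on Chr X from 101079210 to 101086020, was the most abundant transporter gene of wild type and tw18/+. It measured 96.0 FPKM in wild type, 107 in tw18/+ and 59.3 in tw18/tw18, corresponding to a log2 ratio of 0.16 in tw18/+ and of -0.70 in tw18/tw18 (-0.77 to -0.62). *Slc7a1*, which encodes the widely expressed CAT1, measured 11.5 FPKM in wild type, 4.91 in tw18/+ and 5.83 in tw18/tw18. Here wild type stood apart, and both libraries with the tw18 haplotype were lower, by a log2 ratio of -1.23 in tw18/+ (-1.37 to -1.09) and -0.98 in tw18/tw18 (-1.11 to -0.85). *Slc7a3* was 8.35 times as abundant as *Slc7a1* in wild type, 21.9 times in tw18/+ and 10.2 times in tw18/tw18. Together the 5 genes of the group summed to an FPKM of 110, 115 and 68, the latter a log2 ratio of -0.69. *Slc7a14* was at 2.16, 1.84 and 1.30, and *Slc7a2* and *Slc7a4* stayed under 1.

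The Slc1 family comprises the glutamate transporters and the neutral exchangers ASCT1 and ASCT2. *Slc1a3*, a glutamate transporter known from glia as GLAST, measured 9.12 FPKM in wild type, 9.85 in tw18/+ and 5.99 in tw18/tw18. *Slc1a5*, which encodes the glutamine exchanger ASCT2, had 7.09, 8.20 and 6.20. *Slc1a4*, which encodes ASCT1, had 5.40, 4.03 and 3.15. The tw18/tw18 value was the lowest of the 3 libraries in each of these genes, and none was called lower. The other 4 members of the family, which carry glutamate in neurons, glia, kidney and retina, stayed under an FPKM of 1.

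The Slc38 family transports glutamine, alanine and other small neutral amino acids with sodium. *Slc38a1*, *Slc38a2* and *Slc38a4* are neighbours on Chr 15, with 44.5 kb between the first and the second and 295 kb between the second and the third. *Slc38a2*, which encodes the amino acid regulated SNAT2, measured 74.8 FPKM in wild type, 62.1 in tw18/+ and 64.3 in tw18/tw18. *Slc38a1*, which encodes the glutamine transporter SNAT1, had 34.3, 31.6 and 19.7, corresponding to a log2 ratio of -0.80 in tw18/tw18 (-0.87 to -0.73). *Slc38a4*, an imprinted gene expressed from the paternal allele and known from liver and placenta, had 9.61, 7.58 and 3.98, corresponding to a log2 ratio of -1.27 (-1.48 to -1.07) that made it 1 of the 2 genes called lower. Within the cluster, the tw18/tw18 library was thus lowest for *Slc38a1* and *Slc38a4*, while for *Slc38a2* it lay between the other libraries.

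*Slc38a6* measured 3.35 FPKM in wild type, 5.75 in tw18/+ and 9.36 in tw18/tw18, corresponding to a log2 ratio of 1.48 in tw18/tw18 (1.21 to 1.76) and 0.78 in tw18/+ (0.49 to 1.08). It was the only gene of the 8 called higher in tw18/tw18 against wild type whose value did not also differ 2-fold from tw18/+. *Slc38a7*, which encodes a lysosomal glutamine exporter, and *Slc38a10* were nearly level, at 13.7, 12.3 and 14.4 and at 19.5, 18.9 and 22.5. *Slc38a9*, the lysosomal arginine sensor of mTORC1, was at 4.56, 3.25 and 3.35, and *Slc38a3* at 3.90, 2.44 and 3.37. *Slc38a5*, which encodes the glutamine and histidine transporter SNAT5, measured 0.664 FPKM, 1.76 and 0.0844, from about 17, 63 and 3 fragments. Against wild type the tw18/+ value gave a log2 ratio of 1.41 (0.62 to 2.28), and tw18/tw18 against tw18/+ gave -4.38 (-6.70 to -2.77), intervals that show how few fragments lie behind these values. Against wild type the tw18/tw18 value stood at -2.98 (-5.39 to -1.19), and no call was made because both were under 1 FPKM.

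Among the sodium and chloride coupled amino acid carriers of the Slc6 family, *Slc6a6*, which encodes the taurine transporter, was by far the most abundant. Its FPKM was 32.2 in wild type, 30.7 in tw18/+ and 50.3 in tw18/tw18, corresponding to a log2 ratio of 0.64 in tw18/tw18 (0.58 to 0.71) that stayed under the 2-fold limit. *Slc6a9*, which encodes the glycine transporter GlyT1, measured 0.243 FPKM, 0.571 and 2.25 from about 12, 38 and 150 fragments, corresponding to a log2 ratio of 3.21 in tw18/tw18 (2.32 to 4.15). Its tw18/+ value was also above that of wild type, but both were under 1 FPKM and could not be called. Exons of *Ccdc24* on the other strand share 27.8% of its exon bases, so the value is uncertain. *Ccdc24* itself had an FPKM of 2.83, 2.39 and 1.30, and its part in the *Slc6a9* value was not tested. *Slc6a15*, a carrier of branched-chain amino acids and proline known from brain, measured 3.90 FPKM, 2.94 and 1.84, corresponding to a log2 ratio of -1.09 (-1.42 to -0.75). *Slc6a18*, a glycine carrier known from kidney, had 0.646, 0.861 and 1.11.

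The creatine and neurotransmitter carriers of the Slc6 family were together the group with the largest log2 ratio of summed FPKM between tw18/tw18 and wild type among the 8 groups by role, with sums of 20.9 in wild type, 18.8 in tw18/+ and 55.6 in tw18/tw18, corresponding to a log2 ratio of 1.41. Most of this sum was *Slc6a8*, the creatine transporter gene, on Chr X from 73673150 to 73682502. Its FPKM was 16.2 in wild type, 14.2 in tw18/+ and 44.7 in tw18/tw18, corresponding to a log2 ratio of 1.46 (1.35 to 1.57). *Slc6a12*, which encodes the transporter of betaine and GABA, measured 1.72 FPKM, 1.62 and 5.15 from about 63, 82 and 261 fragments, corresponding to a log2 ratio of 1.58 (1.18 to 2.0). *Slc6a2*, which encodes the noradrenaline transporter, had 1.86, 1.37 and 4.85, corresponding to a log2 ratio of 1.38 (1.13 to 1.65). In each of these genes tw18/tw18 stood apart, and tw18/+ lay at or somewhat under wild type. The other 5 genes of the group stayed under an FPKM of 1 in every library, including *Slc6a4*, the serotonin transporter gene, at 0.606, 0.170 and 0.152.

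The Slc36 family moves small amino acids together with protons, and *Slc36a1* encodes PAT1, which acts on lysosomes and in the gut. *Slc36a1* measured 3.43 FPKM in wild type, 3.41 in tw18/+ and 8.68 in tw18/tw18, corresponding to a log2 ratio of 1.34 (1.14 to 1.55). *Slc36a4*, a proline and tryptophan carrier, had 1.08, 0.857 and 2.34, corresponding to a log2 ratio of 1.11 (0.78 to 1.46). Both members of the family that reached 1 FPKM were thus higher in tw18/tw18, with *Slc36a4* dropping under the 2-fold limit with a pseudocount of 1 (0.68). *Slc36a2* and *Slc36a3*, which lie beside *Slc36a1* on Chr 11, stayed under an FPKM of 0.5 in all libraries.

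**Figure D3:**
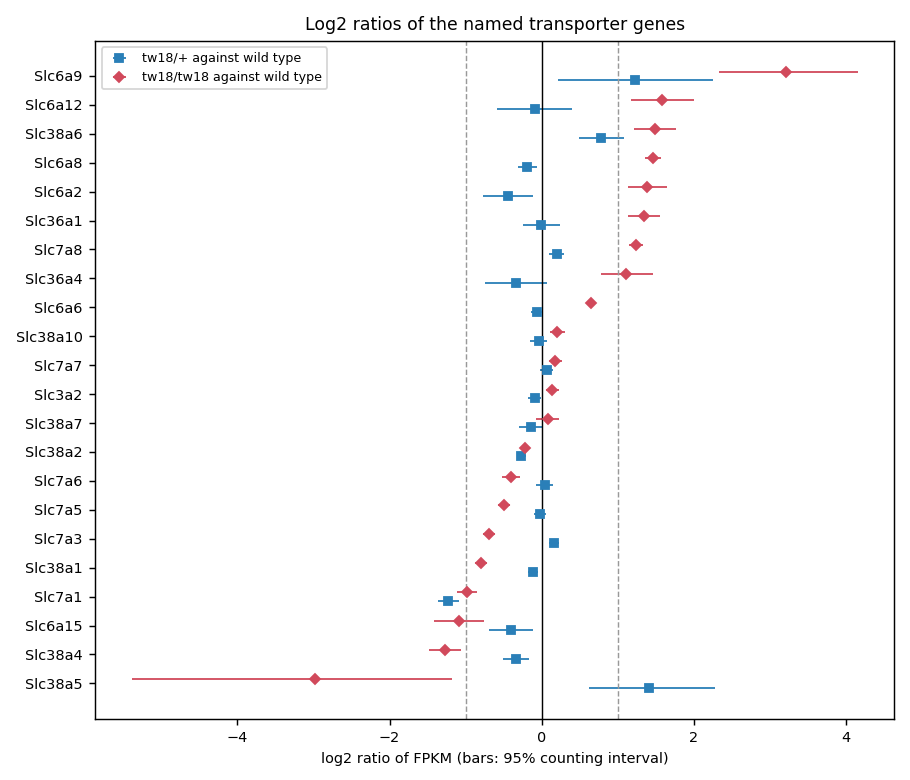
Log2 ratio of FPKM against wild type for the 22 named transporter genes in tw18/+ (squares) and tw18/tw18 (diamonds), with bars for the 95% counting interval and dashed lines at a 2-fold difference. For the genes at the top, from *Slc6a9* to *Slc36a4*, the diamonds lie past the upper dashed line, and of their squares that of *Slc6a9*, which was under 1 FPKM in both libraries, lies past it too. *Slc7a1* has both symbols near or past the lower dashed line, and *Slc38a5* has the widest bars.

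The genes that stayed under an FPKM of 1 throughout were too low for a call. Their highest value was 0.941, for *Slc6a13* in tw18/+. The 8 genes listed at 0 in every library were *Slc1a6*, *Slc6a5*, *Slc6a7*, *Slc6a14*, *Slc7a12*, *Slc7a15*, *Slc38a8* and *Slc38a11*, several of which are known from neurons or kidney. More genes were listed at 0 in wild type (18) than in tw18/+ (10) or tw18/tw18 (13), and wild type was also the shallowest library.

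Genes that respond to a shortage of amino acids were listed apart from the transporters. Of 27 such genes, 25 could be called between tw18/tw18 and wild type, with 2 higher and 2 lower, against 15.1% and 6.94% of all genes. *Atf4*, the regulator, measured 74.2 FPKM in wild type, 53.2 in tw18/+ and 48.9 in tw18/tw18. *Asns*, the asparagine synthetase gene and a known ATF4 target, had 44.1, 41.5 and 65.8. *Cth*, which makes cysteine from cystathionine, was higher in both libraries with the tw18 haplotype, at 7.96, 17.1 and 16.9, and *Ddit4*, an inhibitor of mTORC1, was higher in tw18/tw18 at 5.33, 4.09 and 11.1. *Ddit3*, which encodes the stress factor CHOP, was lower in both, at 2.24, 0.893 and 0.958, and *Nupr1* was lower in tw18/tw18 at 2.2, 2.82 and 0.833. The median log2 ratio over the 22 genes with at least 1 FPKM in all libraries was 0.11 in tw18/tw18 and -0.099 in tw18/+. Between tw18/+ and wild type 1 gene of the list was higher and 2 were lower of 25, against 4.70% and 5.02% of all genes.

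The genes through which mTORC1 senses amino acids were 25 in the table, of 28 symbols listed. In tw18/tw18 against wild type 1 of the 25 was higher and 2 were lower, against 15.1% and 6.94% of all genes, so the number lower was near the share over the whole table. None was called between tw18/+ and wild type, where 4.70% and 5.02% of all genes were. As background, the 2 lower genes encode Rag GTPases, which recruit mTORC1 to the lysosome. *Rragb* measured 19.6 FPKM in wild type, 20.8 in tw18/+ and 4.46 in tw18/tw18, and *Rragd* had 28.2, 33.7 and 9.76. Their counterparts *Rraga* (41.8, 35.6 and 31.7) and *Rragc* (14.7, 15.3 and 15.0) were not called. *Nprl2*, a subunit of the GATOR1 complex that inhibits the pathway, was higher at 4.97, 7.43 and 12.0. The median over the 25 genes was -0.20 in tw18/tw18. Of 17 listed amino acid carriers of other families and of the *Slc6a20* pair, 13 could be called between tw18/tw18 and wild type. None was higher and 1 was lower in tw18/tw18, against 15.1% and 6.94% of all genes, so the number lower was near that share. The lower gene was the leucine carrier gene *Slc43a1*, with an FPKM of 7.73, 6.39 and 2.12.

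**Figure D4:**
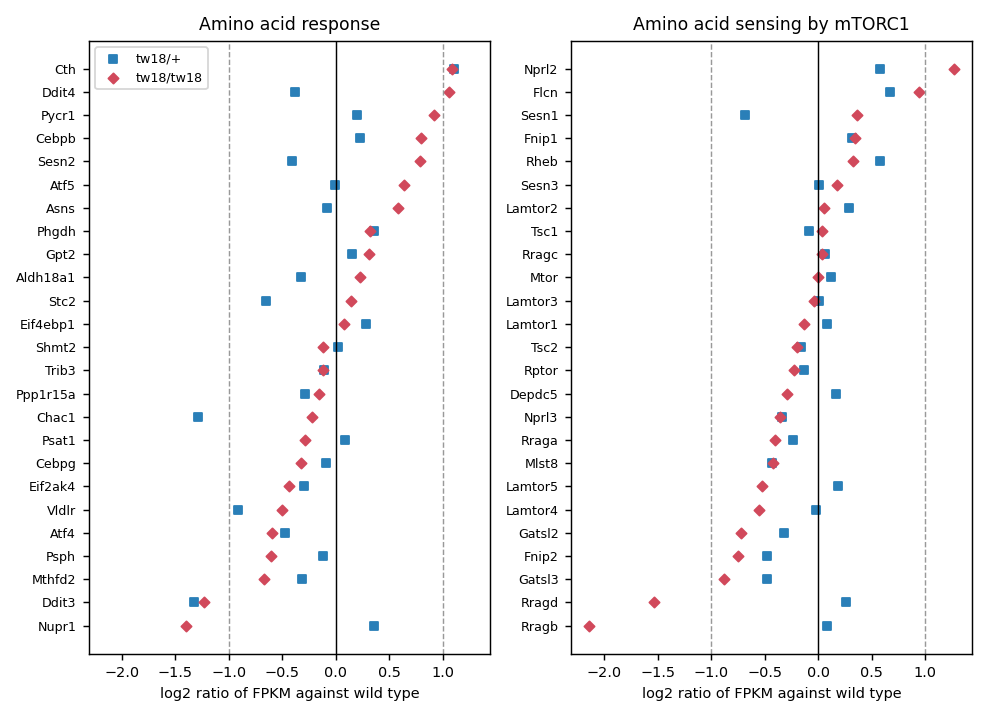
Log2 ratio of FPKM against wild type for the listed amino acid response genes (left) and the genes of amino acid sensing by mTORC1 (right) with at least 1 FPKM in a library, for tw18/+ (squares) and tw18/tw18 (diamonds), with dashed lines at a 2-fold difference. Most points lie between the dashed lines, and *Rragb* and *Rragd* are the genes whose tw18/tw18 points lie farthest to the left.

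Markers of cell types also differed between these libraries. The 10 epiblast markers summed to an FPKM of 1890 in wild type, 2000 in tw18/+ and 963 in tw18/tw18, with 5 of 10 lower in tw18/tw18 than in wild type (against 6.94% of all genes), and the 8 primitive streak markers to 208, 148 and 92, with 6 lower and *T* and *Mesp1* listed at 0 in tw18/tw18. The 12 visceral endoderm markers were all above 0 in every library and summed to 964, 964 and 1320, with 1 higher. The 6 stroma markers summed to 69.7, 91.4 and 442, with all 6 higher (against 15.1% of all genes), the 6 parietal endoderm markers to 325, 377 and 751, with 5 higher, and the 7 extra-embryonic ectoderm markers to 13.8, 12.5 and 37.4, with 6 higher. These numbers are against wild type. Against tw18/+ the numbers higher in tw18/tw18 were 6, 1 and 4 in the same order, beside 14.9% of all genes. The 8 endothelial markers summed to 55.8, 44.7 and 115, with 5 higher, and the 5 immune markers in the table to 10.6, 8.73 and 24.4, with 1 higher. The 5 trophoblast markers summed to 117, 64.6 and 207, with 1 higher, 1 lower and *Prl3b1* listed at 0. Most of each trophoblast sum was *Prl3d1*, at 113, 61.5 and 202, which was not called. The 8 decidual markers had their highest sum in wild type at 1770, against 261 in tw18/+ and 735 in tw18/tw18, with 5 higher and 2 lower in tw18/tw18 than in wild type. Most of the wild type sum was *Prl8a2*, 1 of the 2 lower genes, with an FPKM of 1504, 155 and 377. The median log2 ratio over the 8 markers was 1.17 in tw18/tw18 against wild type. The 8 transporter genes called higher in tw18/tw18 than in wild type were higher in the same library as the stroma, parietal endoderm, extra-embryonic ectoderm and endothelial markers. The visceral endoderm, immune and trophoblast sums were highest there too. Every gene called higher in tw18/tw18 shares this, so it singles out no cell type. In that library 5 of the 8 decidual markers were higher too, and 2 were lower. *Slc38a4* and *Slc6a15* were lower in the same library as the epiblast markers, and *Slc7a3* and *Slc38a1* had log2 ratios of -0.70 and -0.80 there. The part of these cell types in the transporter values was not tested.

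**Figure D5:**
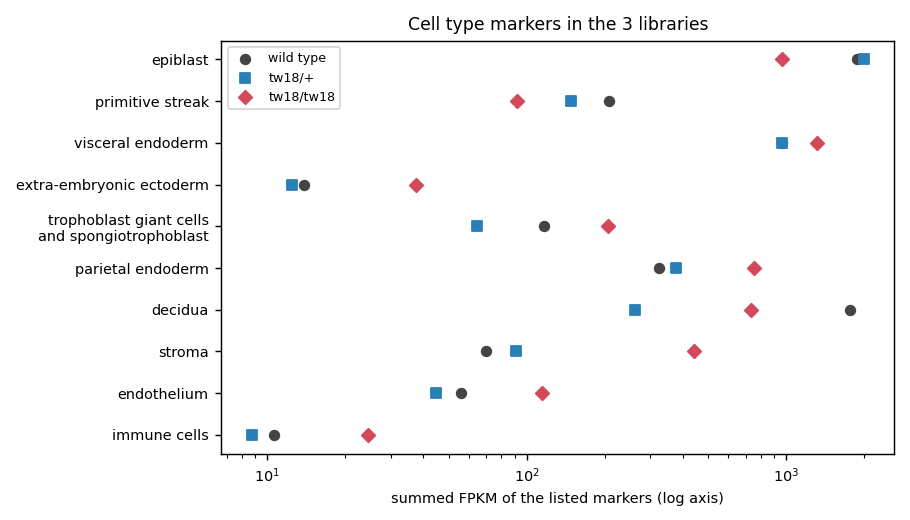
Summed FPKM, on a log axis, of 10 lists of cell type markers in wild type, tw18/+ and tw18/tw18, with 1 point per library. The tw18/tw18 point lies to the left of the others for epiblast and primitive streak and to the right for 7 lists, for trophoblast mostly through *Prl3d1*. It lies between them for decidua, where wild type is highest through *Prl8a2*.

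The libraries differed in the sex-linked genes too. *Xist*, expressed from the inactive X chromosome of females, measured 27.9 FPKM in wild type, 55.2 in tw18/+ and 105 in tw18/tw18, while the Y-linked *Eif2s3y* had 29.2, 21.7 and 8.22. Of the transporter genes, 4 lie on Chr X, namely *Slc6a8*, *Slc7a3*, *Slc38a5* and *Slc6a14*. *Rragb* is X-linked as well. In tw18/tw18 *Slc6a8* was called higher than in wild type, whereas *Slc7a3* had a log2 ratio of -0.70. *Slc38a5* could not be called in this pair, and *Slc6a14* was listed at 0. The part of sex in the values of the X-linked genes was not tested.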

How the data were processed

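Total RNA libraries made with the TotalScript kit were sequenced as paired-end reads, 1 library per genotype. TopHat was the authors' aligner, with mm10 (GRCm38) as the genome, and Cuffdiff gave the FPKM values. The deposited table of the authors holds these FPKM values for 23421 gene symbols. The submitters' processing notes name Cufflinks 2.2.1 and Bowtie 1.0.0. The annotation and the library normalization are not given in the sources used here. An FPKM value is relative to the rest of its library, so abundant genes lower the others.

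The 56 transporter genes were taken by symbol. Ratios were computed in Python 3.11.15 (pandas 2.3.3, numpy 2.4.6, scipy 1.17.1) without a pseudocount. A gene was called at a log2 ratio of at least 1 with the higher FPKM at least 1. How this rule performs between libraries without replicates was not tested. Transporter genes were named with their values when they reached an FPKM of 10 in a library or were called in any pair; others serve as examples. The members and gene lists were chosen with earlier results of these data known, and support nothing by themselves. The result of 1 list of cell type markers is not reported here. Depth was estimated from low FPKM values of genes with 1 annotated transcript of at least 600 bases in GENCODE M21, and 84.5% to 87.4% of those values were whole fragment numbers to within 0.2. Fragment numbers use the longest RefSeq-linked transcript and are approximate. Fragments copied by PCR are not independent molecules. Alternatives were pseudocounts of 0.1 and 1, a minimum FPKM of 5 or none, a 1.5-fold limit and 3 scalings. Promoter sequences are from RefSeq (GRCm38.p6). The plots were drawn with matplotlib 3.10.9.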

Additional observations from a re-analysis of the deposited data

How the results depend on the processing

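The number of transporter genes higher in tw18/tw18 than in wild type (8) stayed within 7 and 10 under both pseudocounts, the 3 scalings and the 1.5-fold limit. The share of all genes higher moved between 9.5% and 24.1% under these settings. With a minimum FPKM of 5 the number was 5 of 21, against 8.96% of all genes. With no filter on low values, which admits genes of few fragments, it was 18 of 44, against 24.2%. The number lower (2) was 1 with a pseudocount of 1, with a minimum FPKM of 5, with equal FPKM sums and with equal FPKM sums leaving out *Lars2*, a scaling chosen after seeing the data. In these settings between 4.11% and 5.18% of all genes were lower. The number was 5 of 44 with no filter and 9 of 30 with the 1.5-fold limit, where 10.8% and 16% of all genes were lower. *Slc6a15* was the gene lost under both sums, at a log2 ratio of -0.87 and -0.91, and with a pseudocount of 1 (-0.79). Between tw18/+ and wild type the number higher (1) was 0 with a pseudocount of 1 (2.12% of all genes) or a minimum FPKM of 5 (1.12%). It was 15 of 46 with no filter (15.8% of all genes) and 2 with the 1.5-fold limit (9.78%). The number lower (1) was 2 with no filter (9.91%) and 2 with the 1.5-fold limit (10.3%). Between tw18/tw18 and tw18/+ the number higher (7) was 4 of 20 with a minimum FPKM of 5 (9.24% of all genes) and 11 of 48 with no filter (21.4%). It was 6 with a pseudocount of 1 (9.18%) and 9 with the 1.5-fold limit (24.3%). The number lower (1) was 0 with a minimum FPKM of 5 (3.21% of all genes), 10 with no filter (12.1%) and 7 with the 1.5-fold limit (15.2%). With a pseudocount of 1, *Slc36a4* also dropped to 0.68 against wild type and 0.85 against tw18/+, and *Slc38a5* to 0.73 in tw18/+. No called log2 ratio of a named transporter gene turned its direction under the pseudocounts or scalings. No paired analysis was possible because each genotype has 1 library. Depth limits the genes under an FPKM of 1, such as *Slc38a5* in tw18/tw18 with about 3 fragments.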
